A study of Mus musculus with 7 samples.

Results

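The comparison set 2 arrays of OT-I cells primed with antigen and lipopolysaccharide (OCS/LPS) against 2 arrays of naive OT-I cells, 4 of the 7 arrays of the series, chosen by the sample titles. OT-I cells are CD8+ T cells with a transgenic receptor for a peptide of chicken ovalbumin. In both groups CD44lo CD8+ cells of Ly5.1 OT-I transgenic donors (C57BL/6), purified from lymph nodes and spleen, were labelled with CFSE, a dye diluted at each division, and injected intravenously into mice. OCS/LPS hosts received splenocytes coated with ovalbumin (OVA) together with LPS, and OT-I cells that had divided 2 or more times were sorted. Naive controls came from antigen-free B6 hosts that held no OVA, and undivided cells were sorted. Both groups were taken from spleen 60 h after transfer as CD8+Ly5.1+ cells, and each array held RNA pooled from 10 mice. Division state, antigen and LPS therefore changed together, and their parts in a difference cannot be told apart. The other arrays held OT-I cells that had also divided 2 or more times: 2 arrays from sacral and pancreatic lymph nodes of RIP-OVAhi mice, a model of deletional tolerance with OVA made under an insulin promoter (60 h, 20 mice pooled), and 1 array from spleens of Rag-/- mice (5 days, 10 mice pooled), whose own T and B cells are missing. They entered the model for its estimate of spread, and the RIP-OVAhi arrays were also set against OCS/LPS.

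A naive CD8 T cell circulates between lymphoid organs in a resting state. When it meets its peptide on an antigen-presenting cell that has been activated through an innate sensor such as the LPS receptor, it enlarges, divides rapidly and begins to make granule proteases and interferon-gamma. Division brings the machinery of DNA replication and mitosis, while transcription factors such as T-bet and IRF4 are known to direct the effector programme and change which tissues the cell can enter.

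Values are log2 GCRMA expression values, and a value under log2 5 is called near background below. Array medians lay between 2.97 and 3.08, and 33.7% to 34.5% of probe sets reached log2 5. The naive arrays differed more from each other than the OCS/LPS arrays did: 347 of 8203 tested genes were over 2-fold apart against 31, and 225 of the 347 were higher on naive array 2. Sex-linked genes differed by replicate number in both groups: Xist was at 2.74 and 12.73 on naive arrays 1 and 2 and at 2.73 and 12.76 on OCS/LPS arrays 1 and 2. The difference between 3' and 5' probe sets of Gapdh, which depends on RNA quality and on labelling, was 2.59 and 2.43 on the naive arrays and 1.85 and 1.89 on the OCS/LPS arrays. It moved with the groups, and its part in the gene differences was not tested. The 8 CD8 T cell marker genes were all well above background in both groups and 0 of them were called different in limma, while 1 of the 8 had an unadjusted p under 0.05. Cd8a lay at 12.77 and 12.59 in naive cells and at 13 and 12.78 in OCS/LPS cells. All 4 CD4 and regulatory T cell markers were near background.

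OCS/LPS and naive cells differed in 32.9% of the tested genes. limma called 1685 genes higher (20.5% of the 8203 tested) and 1013 lower (12.3%) at an adjusted p under 0.05, and 807 (9.84%) and 394 (4.8%) of these changed at least 2-fold. Rises were larger than falls: 207 genes rose at least 8-fold and 19 fell at least 8-fold. Of the rises, 251 started near background in naive cells, and of the falls 110 ended near background. The median difference of all tested genes was 0.08 on the log2 scale, with a median standard error (SE) of 0.16. In all 2698 called genes the arrays of the groups did not overlap; over all tested genes 39.4% did not overlap with OCS/LPS higher and 28.6% with OCS/LPS lower. The balance of rises and falls depended on the scaling: with each array centred on the median of the tested genes, an alternative chosen after seeing the data that moved the differences by -0.15, 1340 genes were higher and 1461 lower. With either OCS/LPS array alone the counts were 891 and 325 (array 2) or 690 and 328 (array 1). With either naive array alone they were 2046 and 1330 (array 2) or 2255 and 1391 (array 1). Every p-value measures only the spread between these few arrays; the labels do not say whether the arrays of a group came from separate experiments, but their Xist levels differed, so they did not hold the same RNA. Of the tested genes, 64 passed the filter on low values only through the OCS/LPS arrays and 120 only through the naive arrays, so that these were tested because they were high there.

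**Figure D1:**
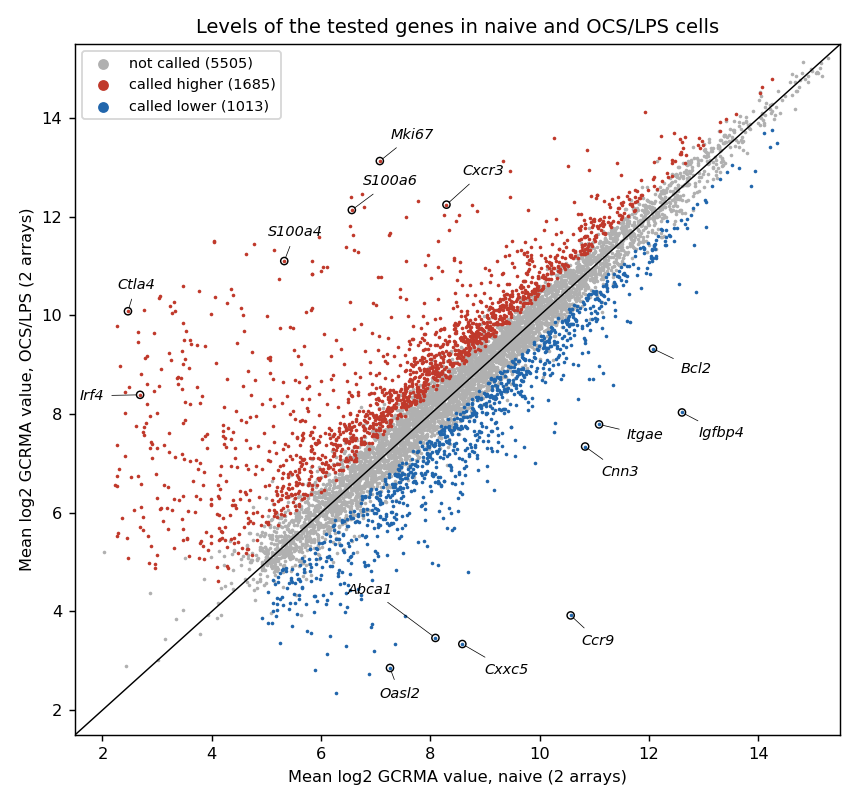
Mean log2 GCRMA value of each of the 8203 tested genes in naive cells (x axis, 2 arrays) and OCS/LPS cells (y axis, 2 arrays), with called genes in red (1685 higher) and blue (1013 lower) and the line of equal levels in black. A field of red points rises from naive levels under log2 5, while the blue points lie closer to the line, with Ccr9, Abca1, Cxxc5 and Oasl2 the labelled genes that ended near background.

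Genes of mitosis were among the largest rises. Of 72 tested genes for mitotic kinases, spindle, kinetochore and condensin, 70 rose and 0 fell, with a median difference of 5.47 on the log2 scale; at an unadjusted limma p under 0.05 the counts were also 70 and 0. Many of them were near background in naive cells. Among the 31 that lay at log2 5 or more in both groups, 29 rose. Aspm, a spindle pole protein gene, was at 2.04 and 2.49 on the naive arrays and at 9.58 and 10.00 on the OCS/LPS arrays, and rose by 7.53 (SE 0.23, adjusted p = 1.81e-05, n = 2 per group). Mki67, which encodes the proliferation antigen Ki-67, was measured in both groups: it lay at 6.71 and 7.44 in naive cells and at 12.99 and 13.27 after priming, and rose by 6.05 (SE 0.26, adjusted p = 4.82e-05). Both OCS/LPS arrays were far above both naive arrays for both genes. Top2a, the topoisomerase that untangles sister chromatids, rose by 5.42 from 6.49 and 7.07 (SE 0.23), and Cdca8, a subunit of the chromosomal passenger complex, rose by 5.29 from 6.18 and 6.88 (SE 0.25). The kinetochore genes Nuf2 (7.12), Cenpf (7.36) and Cenpe (7.01), the checkpoint kinase gene Bub1 (7.31), the cyclin gene Ccnb2 (7.44) and the spindle genes Tpx2 (7.33) and Nusap1 (7.46) rose from near background. The list's exceptions were Pttg1, the inhibitor of the protease that separates sister chromatids, at 11.41 and 11.57 in naive and 11.72 and 11.28 in OCS/LPS cells, and Smc4, a condensin subunit, at 12.89 and 12.14 and 12.74 and 12.89; their ranges overlapped. Both exceptions were singled out after their values were seen. Of the 2 other tested probe sets of Smc4, 1 was called higher, and of the 2 of Pttg1, 0 were called. The naive arrays were not alike here: 18 of the 72 genes were over 2-fold apart between them, 16 of these higher on naive array 2. Cep55, a gene of the final cut between daughter cells, read 4.31 and 5.98 on naive arrays 1 and 2.

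Promoters of these genes shared short sequence motifs. Promoters were taken from RefSeq (GRCm38.p6) as the 250 bases before to 50 bases after each transcription start, and motifs were searched on both strands; of the 8203 tested genes 6768 had an entry. The cell cycle gene homology region (CHR), searched as TTTGAA or TTCGAA, is an element at which the DREAM repressor complex is known to bind in resting cells. It occurred in 48 of 65 promoters of mitosis genes that rose (73.8%), against 19.2% of all 32851 promoters and 14.2% of those of tested genes. In 43 of the 48, the match nearest the start began within 100 bases of it. CCAAT, the element of the factor NF-Y, occurred in 70.8% of the 65 promoters and in 37.4% of all. Matches are descriptions of these letters, not measured binding. Below, 30 bases around the match nearest the start are printed 5′ to 3′ on the gene's strand, with the match in capitals. They are given for the 8 most strongly risen mitosis genes that had a match. Likeness of the flanking bases was not measured.
Aspm, chr1:139454767-139454796, plus strand: ggaggcgcgataTTTGAAccgagcaaaagc
Ccnb2, chr9:70421533-70421562, minus strand: agcggcgcggtaTTTGAAtcgcggaccggg
Cenpf, chr1:189688067-189688096, minus strand: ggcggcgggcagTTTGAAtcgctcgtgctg
Bub1, chr2:127831828-127831857, minus strand: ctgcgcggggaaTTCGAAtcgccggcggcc
Hmmr, chr11:40733412-40733441, minus strand: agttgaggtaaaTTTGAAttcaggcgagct
Kif2c, chr4:117178858-117178887, minus strand: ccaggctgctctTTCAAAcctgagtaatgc
Kif11, chr19:37376351-37376380, plus strand: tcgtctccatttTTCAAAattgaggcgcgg
Ube2c, chr2:164769888-164769917, plus strand: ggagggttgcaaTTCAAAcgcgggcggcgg
In Aspm, Ccnb2, Cenpf, Bub1 and Hmmr the match lay just after the annotated start, at most 14 bases in. In Kif2c, Kif11 and Ube2c it lay on the opposite strand (TTCAAA) and began 103, 19 and 29 bases before the start. Hmmr, Kif2c, Kif11 and Ube2c, genes of the spindle and of mitotic protein destruction, were named here for their promoter match, and rose by 6.81, 6.78, 6.75 and 6.72. The whole Aspm promoter is shown because it held 1 CHR match and 3 CCAAT matches, the latter all on the opposite strand (ATTGG). The capitals mark the 4 matches.
Aspm, chr1:139454523-139454822, plus strand: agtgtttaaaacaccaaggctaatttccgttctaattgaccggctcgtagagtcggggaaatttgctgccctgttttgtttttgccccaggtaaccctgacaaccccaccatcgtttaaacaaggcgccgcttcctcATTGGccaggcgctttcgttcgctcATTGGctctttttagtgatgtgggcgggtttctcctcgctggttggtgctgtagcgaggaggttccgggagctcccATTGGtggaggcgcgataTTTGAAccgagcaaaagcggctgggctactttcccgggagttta
Nusap1 had neither motif in its window.

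DNA replication followed the same pattern with smaller steps from higher naive levels. Of 44 genes for licensing and fork proteins 40 rose and 0 fell (median 1.71). At an unadjusted limma p under 0.05 the counts were 41 and 0. Of the 44, 37 lay at log2 5 or more in both groups, and 1 passed the filter on low values only through the OCS/LPS arrays. Mcm10, a gene of replication initiation, went from 2.29 and 2.69 on the naive arrays to 8.52 and 8.59 on the OCS/LPS arrays. It rose by 6.07 (SE 0.17, adjusted p = 1.68e-05). Cdc6, a licensing factor gene, rose by 5.42 (SE 0.28), the ligase gene Lig1 rose by 3.72 (SE 0.12) and the helicase cofactor gene Cdc45 rose by 5.01 (SE 0.18). Among 33 genes of nucleotide and one-carbon synthesis 17 rose and 1 fell (median 0.58). Rrm2, the regulated subunit of ribonucleotide reductase, lay at 6.66 and 6.82 in naive cells and at 12.34 and 12.56 in OCS/LPS cells, and rose by 5.72 (SE 0.14, adjusted p = 1.08e-05). Tk1, the thymidine salvage kinase gene, rose by 6.95 from near background (SE 0.33), and the serine and folate pathway genes Psat1 and Mthfd2 rose by 1.80 and 1.73. The exception, Prps2, fell by 0.46, and another of its probe sets was called in the opposite direction. With only OCS/LPS array 1, the nucleotide count was 7.

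The E2F motif, searched as TTTNNCGC, is the element of the E2F factors that drive entry into S phase. It was found in 13 of 36 promoters of risen replication genes (36.1%), against 5.17% of all promoters and 9.32% of those of tested genes. Of 6 promoters of the replication genes that were not called, 2 held it. The 6 most strongly risen genes with a match are shown with the same 30-base layout; every one of these matches lay on the opposite strand, so that the capitals read GCGNNAAA.
Cdc6, chr11:98908002-98908031, plus strand: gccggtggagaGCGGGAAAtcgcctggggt
Dna2, chr10:62946926-62946955, plus strand: gagtggagacgGCGGAAAAgcgcctccggt
Lig1, chr7:13278841-13278870, plus strand: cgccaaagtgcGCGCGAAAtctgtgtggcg
Pola1, chrX:93632275-93632304, minus strand: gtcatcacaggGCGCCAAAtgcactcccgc
Orc1, chr4:108579416-108579445, plus strand: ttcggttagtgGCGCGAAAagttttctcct
Rfc3, chr5:151651190-151651219, minus strand: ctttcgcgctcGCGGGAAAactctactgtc
Mcm10 had no match in its window.

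Regulators of entry into the cycle, DNA repair genes and chromatin genes rose as well. Of 30 G1 cyclins, CDK inhibitors and E2F regulators 22 rose and 1 fell (median 1.05). Ccne2, the cyclin that drives S phase entry, was at 4.53 and 4.63 in naive and 9.50 and 9.85 in OCS/LPS cells and rose by 5.10 (SE 0.16, adjusted p = 1.9e-05). Genes for factors on both sides of the E2F balance rose, the activator gene E2f2 by 4.32 and the repressor genes E2f7 and E2f8 by 3.89 and 4.34. The list's fall was Ccnd2, a D-type cyclin made by resting and early activated T cells, which went from 12.44 and 12.64 to 10.76 and 10.49 and fell by 1.91 (SE 0.15, adjusted p = 0.00044). Of 29 repair genes 20 rose and 0 fell (median 1.04; 21 and 0 unadjusted), led by the recombination gene Rad54l (5.60), the checkpoint genes Clspn (4.81) and Chek1 (4.12) and Brca1 (4.08). Chromatin and DNA methylation genes numbered 14 higher and 3 lower of 28 (median 0.60). These were 50% and 10.7%, against 20.5% and 12.3% of all tested genes. Uhrf1, which brings maintenance methylation to replicated DNA, rose by 4.93 (SE 0.18), Dnmt1, that maintenance methylase, by 1.64 (SE 0.13), and Ezh2, the H3K27 methylase, by 3.26 (SE 0.15). Kdm5b and Kdm6b, demethylases of H3K4 and H3K27, fell by 1.49 and 1.26, and the methylcytosine oxidase gene Tet2 by 0.64. With only OCS/LPS array 1, the count of risen G1 regulators was 12 and that of fallen chromatin genes 1; without naive array 2 the latter was 5.

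**Figure D2:**
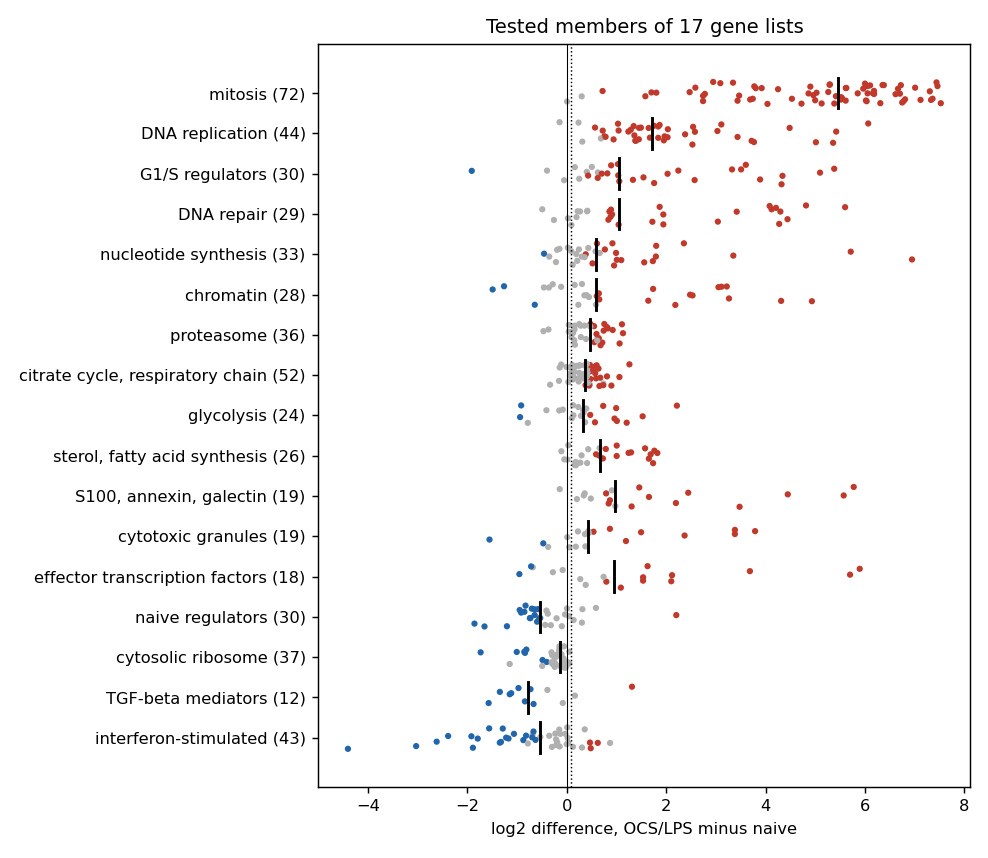
Log2 difference, OCS/LPS minus naive, of every tested member (points) of 17 gene lists (rows, number tested in parentheses), with called rises in red, called falls in blue, other genes in grey, each list's median as a black bar and the median of all tested genes as a dotted line at 0.08. The mitosis genes spread around 5.47, the interferon-stimulated genes extend down to -4.41, and the citrate cycle and respiratory genes lie close to 0.

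Metabolic genes moved by less. Of 26 sterol and fatty acid synthesis genes 14 rose and 0 fell (median 0.66; 16 and 0 unadjusted). Sqle, the squalene epoxidase gene, was at 6.08 and 5.21 on the naive arrays and at 7.37 and 7.57 on the OCS/LPS arrays, and rose by 1.82 (SE 0.29, adjusted p = 0.00613). The sterol demethylase gene Cyp51, the isomerase gene Idi1 and the desaturase gene Scd2 rose by 1.76, 1.74 and 1.65. Abca1, the pump that exports cholesterol, went the other way, from 7.95 and 8.23 to 3.49 and 3.43, near background, and fell by 4.63 (SE 0.18, adjusted p = 3.95e-05). Mylip, whose product marks the LDL receptor for destruction, fell by 1.64 (SE 0.17). Neither the Cyp51 nor the Idi1 promoter held TCACNCCAC, a form of the sterol regulatory element, which was found in 1 of 9 promoters of risen sterol genes and in 1.24% of all promoters. Glycolysis and related genes numbered 9 higher and 2 lower of 24 (median 0.33). These were 37.5% and 8.33%, against 20.5% and 12.3% of all tested genes. The hexokinase gene Hk2 rose by 2.22 (SE 0.29), Tpi1 by 1.53 and Pgam1 by 1.01. Pdk1, a brake on pyruvate use in mitochondria, fell by 0.94. Slc2a1, the glucose carrier GLUT1, was not called (-0.08, SE 0.35): it read 9.04 and 10.08 in naive and 9.28 and 9.68 in OCS/LPS cells, and the ranges overlapped. Of 52 genes of the citrate cycle and respiratory chain 18 rose and 0 fell (median 0.37; 21 and 0 unadjusted), and of 36 proteasome genes 16 rose and 0 fell (median 0.48; 18 and 1 unadjusted). Dlat, a subunit of pyruvate dehydrogenase, rose by 1.26 and the proteasome ATPase gene Psmc1 rose by 1.13. The last 2 counts depended on which naive array was used: 40 of the 52 and 28 of the 36 genes were higher on naive array 2, and without that array 34 and 24 members were called higher, against 17 and 15 without naive array 1. Without OCS/LPS array 1 or 2 they fell to 3 and 1 respiratory genes and to 5 and 2 proteasome genes. Centred on the tested genes, 8 respiratory genes were called. The sterol count was 8 without OCS/LPS array 1 and 9 without array 2, and the glycolysis count 4 without array 2.

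Killing and effector genes changed in both directions. Gzmb, the protease granzyme B, was at 4.81 and 6.2 on the naive arrays and at 9.18 and 9.41 on the OCS/LPS arrays, and rose by 3.79 (SE 0.43, adjusted p = 0.0019). Granzyme A, encoded by Gzma, was already at 7.70 and 8.07 in naive cells, reached 10.17 and 10.35 and rose by 2.37 (SE 0.17, adjusted p = 0.000312). Prf1, which encodes the pore protein perforin, instead went from 8.41 and 7.90 to 6.45 and 6.75 and fell by 1.56 (SE 0.22, adjusted p = 0.00424). All 4 arrays separated by group for each of these 3 genes. Serpins that shield the killer cell from its own proteases rose, Serpinb9 by 1.5 (SE 0.12) and Serpinb6b by 3.38 (SE 0.27). So did genes of granule release, Stx11 by 3.38 (SE 0.15) and Unc13d by 0.87 (SE 0.22). In all 8 of 19 cytotoxic genes rose and 2 fell (median 0.43). These were 42.1% and 10.5%, against 20.5% and 12.3% of all tested genes. Nkg7, a granule membrane gene, lay at 12.14 and 12.48 in naive and 12.60 and 12.39 in OCS/LPS cells and was not called; it was picked after its values were seen. Gzmk, another granzyme, stayed near background at 2.62 and 2.72 in naive and 4.41 and 3.84 in OCS/LPS cells, and Fasl, the ligand of the death receptor Fas, between 2.20 and 2.25 on these 4 arrays; neither was tested.

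Of 9 cytokine and chemokine genes tested 3 rose and 0 fell, in limma also without adjustment, and 1 was called with either OCS/LPS array alone. Ifng, which encodes interferon-gamma, was near background at 2.79 and 3.66 in naive cells and at 7.81 and 7.43 in OCS/LPS cells, and rose by 4.40 (SE 0.40, adjusted p = 0.000812). The chemokine gene Ccl5 rose by 0.67 (SE 0.19) and the lymphotoxin gene Lta rose by 0.68 (SE 0.17). Tnf, at 5.59 and 5.14 and 5.8 and 5.65, was not called (0.36, SE 0.25, adjusted p = 0.31). Of 3 tested NK cell lectin-like receptor genes 2 rose. Klrc1, the NKG2A chain, went from 5.90 and 4.62 to 9.79 and 9.71, a rise of 4.49 (SE 0.40). Klrk1, the activating receptor NKG2D, went from 2.52 and 2.54 to 7.02 and 6.40 and rose by 4.19 (SE 0.22), but it was tested only because it was high on the OCS/LPS arrays. Klrd1, which encodes CD94, the partner chain of NKG2A, was at 13.02 and 13.14 and 12.96 and 12.76 and was not called (-0.23, SE 0.13). Klrg1, a marker of terminal effector cells, lay between 3.75 and 3.88 on the 4 arrays and was not tested. The NK cell markers named on the array were near background in both groups, except Klra8, at 4.0 and 5.08 and 4.04 and 5.85.

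**Figure D3:**
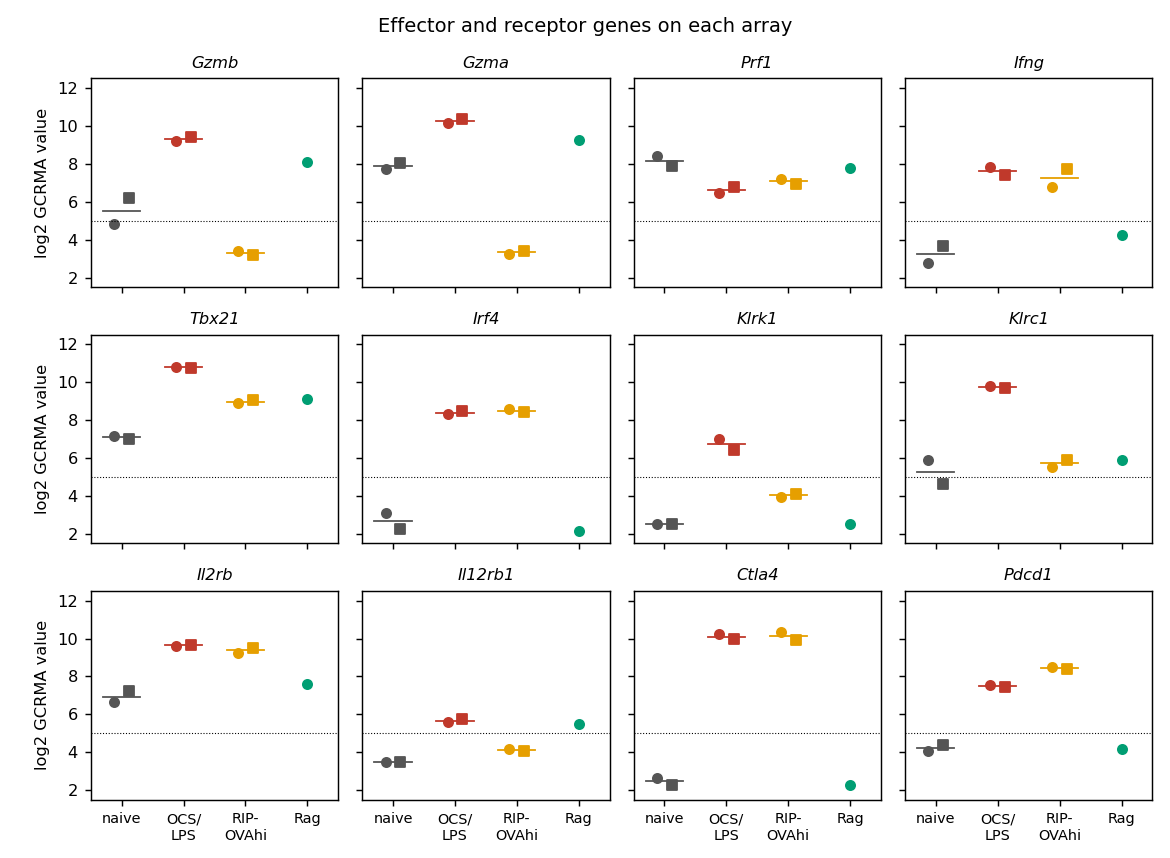
Log2 GCRMA values of 12 effector and receptor genes on each of the 7 arrays, grouped by naive, OCS/LPS, RIP-OVAhi and Rag; circles are arrays numbered 1, squares arrays numbered 2, short lines group means, and the dotted line marks log2 5. Gzma and Gzmb are high in OCS/LPS and near 3 in RIP-OVAhi cells, whereas Irf4 and Ctla4 are high in both and near background in naive and Rag cells.

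Transcription factors of effector cells rose in 10 of 18 cases and fell in 2 (median 0.94). Tbx21, which encodes T-bet, was at 7.19 and 7.02 in naive and 10.81 and 10.76 in OCS/LPS cells and rose by 3.69 (SE 0.13, adjusted p = 2.63e-05). Irf4, a factor induced through the antigen receptor, went from 3.09 and 2.28, near background, to 8.32 and 8.46 and rose by 5.70 (SE 0.27, adjusted p = 6.26e-05). Zbtb32, a zinc finger repressor, rose by 5.90 from 4.33 and 2.87 (SE 0.46). Batf, the partner of IRF4 on DNA, rose by 1.63 (SE 0.22), the Ikaros family genes Ikzf3 and Ikzf2 by 2.12 and 1.54, Irf8 by 2.10 and Tox2 by 1.54. The falls were Id2, a partner inhibitor of E proteins, which fell by 0.72 (SE 0.14), and Tox, a factor linked to exhaustion, which fell by 0.95 (SE 0.23). Both of these calls were lost with either OCS/LPS array alone. Eomes, the relative of T-bet, lay at 10.30 and 10.25 in naive and 10.30 and 10.09 in OCS/LPS cells and was not called (-0.08, SE 0.14, adjusted p = 0.687). Prdm1, which encodes Blimp-1, was near background on all 4 arrays, at most 3.64. Myb was the exception among the regulators of resting cells: it rose by 2.20 from 8.52 and 7.75 to 10.39 and 10.28 (SE 0.27, adjusted p = 0.00254).

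The other regulators of naive and resting cells mostly fell. Of 30 tested genes 16 fell and 1 rose, with a median difference of -0.55, and every one of the 30 lay at log2 5 or more in both groups. Cnr2, a cannabinoid receptor gene, was at 8.23 and 8.67 in naive and 6.68 and 6.50 in OCS/LPS cells and fell by 1.86 (SE 0.18, adjusted p = 0.00103). Tsc22d3, the glucocorticoid-induced gene GILZ, fell by 1.66 (SE 0.28) and Pik3ip1, an inhibitor of PI3 kinase, fell by 1.21 (SE 0.16). Foxp1 and Bach2, transcription factors that hold T cells in the resting state, fell by 0.95 (SE 0.13) and 0.85 (SE 0.13). Lef1, a factor of the Wnt pathway, went from 11.25 and 11.06 to 10.44 and 10.39 and fell by 0.74 (SE 0.14), and Klf2, which drives exit from lymph nodes, from 12.29 and 12.34 to 11.79 and 11.38, a fall of 0.73 (SE 0.17). Id3 was not called (0.59, SE 0.30). Of the 16 falls 3 were at least 2-fold, and with either OCS/LPS array alone 4 genes were called lower.

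Inhibitory and costimulatory receptors were among the genes that rose. Ctla4, which competes with CD28 for its ligands, had the largest rise of all tested genes: it went from 2.64 and 2.29 on the naive arrays to 10.22 and 9.95 on the OCS/LPS arrays, up by 7.62 (SE 0.20, adjusted p = 1.47e-05). Pdcd1, which encodes PD-1, was at 4.08 and 4.40 and 7.57 and 7.47 and rose by 3.28 (SE 0.15, adjusted p = 6.07e-05), and Lag3 rose by 2.13 (SE 0.24) to 5.09 and 4.87, around the background limit. Cd160 and Cd200 rose by 2.01 and 2.61. Vsir, which encodes VISTA, an inhibitor on resting T cells, fell by 1.02 (SE 0.20) and Cd274, which encodes PD-L1, by 0.75 (SE 0.18). That made 6 of 9 inhibitory genes higher and 2 lower, and 0 were called lower with either OCS/LPS array alone. Of the 4 at log2 5 or more in both groups 1 rose and 2 fell. Of the 9 genes, 1 passed the filter on low values only through the OCS/LPS arrays. Havcr2, which encodes TIM-3, was near background at 2.37, 2.40, 2.60 and 3.33 and was not tested. Of 15 costimulatory genes 7 rose and 0 fell (median 0.92; 8 and 2 unadjusted). Slamf7 rose by 3.46 (SE 0.26), the CD28 ligand gene Cd86 rose by 2.18 (SE 0.12), Icos rose by 1.54 (SE 0.14) and Cd28 rose by 1.07 (SE 0.12). Tnfsf11, which encodes RANK ligand, was at 3.26 and 3.13 in naive and 5.16 and 6.19 in OCS/LPS cells and rose by 2.48 (SE 0.32). Tnfrsf9, which encodes 4-1BB, was not called (0.54, SE 0.24).

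Among 19 cytokine receptor genes 5 rose and 7 fell (4 or 3 lower without OCS/LPS array 1 or 2). Il2rb, the shared receptor chain for interleukin-2 and interleukin-15, went from 6.64 and 7.23 to 9.62 and 9.66 and rose by 2.70 (SE 0.22, adjusted p = 0.000541). Il7r, the survival receptor of resting T cells, went from 12.94 and 12.78 to 10.52 and 10.44 and fell by 2.38 (SE 0.17, adjusted p = 0.000296). Receptors for the inflammatory cytokines interleukin-12 and interleukin-18 rose in part. Il12rb1 rose by 2.19 from near background to 5.59 and 5.75 (SE 0.12), but passed the filter on low values only through the OCS/LPS arrays. Il18rap rose by 1.81 (SE 0.16), while Il18r1, the other interleukin-18 receptor chain, fell by 1.79 (SE 0.54, adjusted p = 0.0498). Il10ra rose by 1.67 and Ifnar2, a chain of the type I interferon receptor, by 1.0. Il6ra and Il27ra fell by 1.58 and 1.03. Il2ra, the inducible interleukin-2 receptor chain, was near background at 2.58 and 2.64 in naive and 2.57 and 2.56 in OCS/LPS cells and was not tested. Of 14 JAK, STAT and feedback genes 3 fell (21.4%, against 12.3% of all tested genes) and 0 rose in limma, with 4 higher at an unadjusted p under 0.05 and a median of 0.08. Socs3, a feedback inhibitor of cytokine receptors, was at 10.42 and 10.15 in naive and 7.80 and 7.82 in OCS/LPS cells and fell by 2.48 (SE 0.42, adjusted p = 0.00773), and Socs5 and Pim3 fell by 1.25 and 1.03. All 3 calls were lost with either OCS/LPS array alone.

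Receptors that steer migration changed in both directions. Ccr9, the receptor for gut homing, was at 10.51 and 10.62 on the naive arrays and at 2.98 and 4.86 on the OCS/LPS arrays, and fell by 6.65 (SE 0.56, adjusted p = 0.000609), the largest fall of all tested genes. Itgae, the integrin chain CD103 that binds epithelium, went from 10.80 and 11.37 to 7.46 and 8.12 and fell by 3.29 (SE 0.29, adjusted p = 0.000683). Cxcr3, the receptor for chemokines induced by interferon-gamma, went from 8.27 and 8.32 to 12.41 and 12.08 and rose by 3.95 (SE 0.15, adjusted p = 3.11e-05). None of these ranges overlapped. Cxcr5, a receptor that leads cells towards B cell follicles, rose by 4.0 (SE 0.18). Cxcr6 and Cxcr4 fell by 2.10 and 1.5. The lymph node receptor gene Ccr7 went from 12.02 and 12.10 to 11.11 and 11.08 and fell by 0.96 (SE 0.14), and the lymphoid exit receptor gene S1pr1 from 11.34 and 10.78 to 10.38 and 10.29, a fall of 0.72 (SE 0.21, adjusted p = 0.0452). Among 20 integrin, adhesion and activation genes 8 rose and 5 fell. Itgb1, the integrin beta 1 chain, was at 6.78 and 6.37 in naive and 11.49 and 11.78 in OCS/LPS cells and rose by 5.06 (SE 0.20, adjusted p = 3.86e-05), and its partner Itga4 rose by 1.37 (SE 0.24). Cd44, a hyaluronan receptor on which the donor cells had been selected low, went from 7.67 and 8.23 to 11.11 and 11.34 and rose by 3.27 (SE 0.21). Itgax, which encodes CD11c, went from 2.27 and 2.29 to 5.64 and 5.52 and rose by 3.30 (SE 0.12); it too was tested only through the OCS/LPS arrays. Cd69, an early activation and tissue retention marker, fell from 11 and 11.27 to 9.83 and 9.66, by 1.39 (SE 0.15). Of 10 chemokine and lipid receptor genes 2 rose and 5 fell, or 20% and 50%, against 20.5% and 12.3% of all tested genes. With either OCS/LPS array alone 4 adhesion genes were called higher and 2 lower, and without OCS/LPS array 2 the fallen migration receptors numbered 3.

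Genes of small calcium-binding proteins of the cell periphery rose. Of 19 S100, annexin, galectin and linked cytoskeletal genes 12 rose and 0 fell (median 0.98; 15 and 0 unadjusted). S100a4 was at 5.32 and 5.33 on the naive arrays and at 11.21 and 10.99 on the OCS/LPS arrays, and rose by 5.78 (SE 0.14, adjusted p = 1.08e-05). S100a6 went from 6.23 and 6.89 to 12.17 and 12.10 and rose by 5.57 (SE 0.22, adjusted p = 3.95e-05). Anxa2, an annexin that binds an S100 partner at the membrane, rose by 4.45 from 7.32 and 7.77 (SE 0.23). Galectins, which bind surface sugars, rose too: Lgals3 by 3.48 from near background (SE 0.12) and Lgals1 by 2.20, with naive values of 11.20 and 12.66 (SE 0.44). Lgals3 passed the filter on low values only through the OCS/LPS arrays. Vim, which encodes vimentin, was at 13.64 and 13.70 and 14.00 and 14.06 and not called (0.36, SE 0.12), and was picked after its values were seen; both of its other tested probe sets were called higher. Without OCS/LPS array 1 the count was 7.

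**Figure D4:**
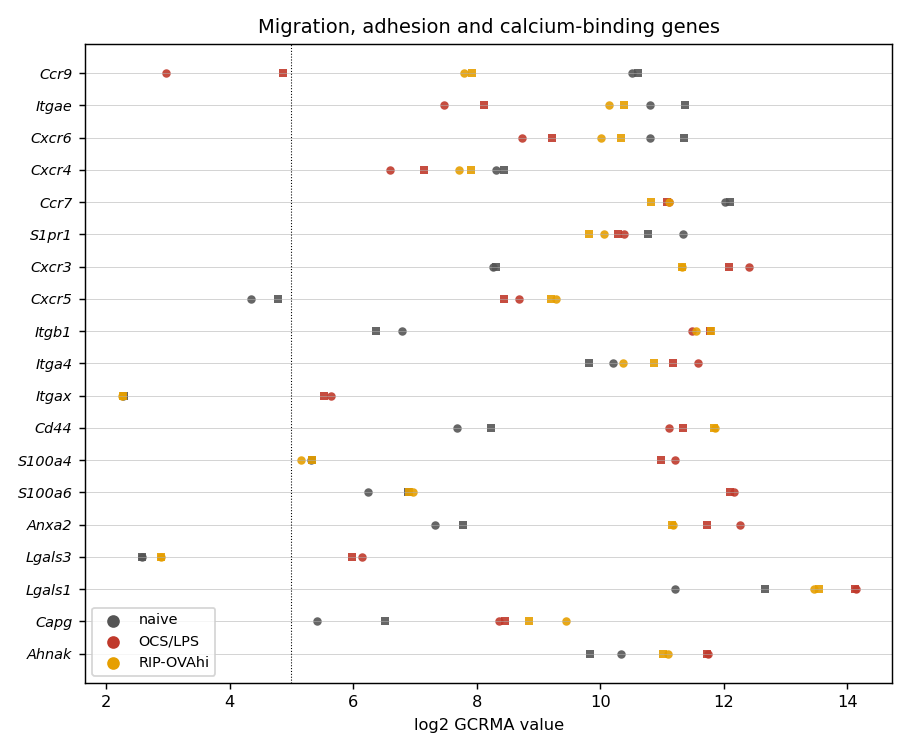
Log2 GCRMA values (x axis) of 19 migration, adhesion and calcium-binding genes (rows) on the naive (grey), OCS/LPS (red) and RIP-OVAhi (orange) arrays; circles are arrays numbered 1, squares arrays numbered 2, and the dotted line marks log2 5. Ccr9 and Itgae lie lowest in OCS/LPS, while S100a4, S100a6, Lgals3 and Itgax are high in OCS/LPS and at or close to naive levels in RIP-OVAhi.

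Interferon-stimulated genes were lower after priming. Of 43 tested genes 19 fell and 3 rose, with a median of -0.53. Oasl2, a relative of the antiviral oligoadenylate synthetases, was at 7.27 and 7.25 on the naive arrays and at 2.86 and 2.85 on the OCS/LPS arrays, and fell by 4.41 (SE 0.15, adjusted p = 2.63e-05). Ifit1, which recognises foreign RNA ends, went from 7.72 and 8.33 to 5.22 and 4.76 and fell by 3.03 (SE 0.25, adjusted p = 0.000541). Rsad2, which encodes viperin, read 8.60 and 7.29 on the naive arrays, over 2-fold apart, and 5.53 and 5.12 on the OCS/LPS arrays, a fall of 2.62 (SE 0.42). Ifit3 (-2.39), the guanylate-binding protein gene Gbp2 (-1.79), the tetherin gene Bst2 (-1.56) and Irf7 (-1.22), the factor that amplifies interferon production, fell as well. The 3 rises were the synthetase gene Oas3 (0.48), the immunoproteasome gene Psmb9 (0.47) and Ly6e (0.62), of which Ly6e had another probe set called lower. Mx1, an antiviral GTPase gene of the list, read 6.98 and 5.66 in naive and 6.75 and 6.61 in OCS/LPS cells and was not called (0.36, SE 0.40). It was singled out after its values were seen. The list had 12 falls and 0 rises without OCS/LPS array 1, and 8 and 0 without array 2.

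The interferon-stimulated response element, to which the interferon-activated ISGF3 complex is known to bind, was searched as a pair of GAAA repeats with any 2 bases between them. It occurred in 9 of 19 promoters of interferon-stimulated genes that fell (47.4%), in 1 of 2 of those that rose, in 5 of 18 of those not called (27.8%), in 3.44% of all promoters and in 3.25% of those of tested genes. For the falling genes, 30 bases around the match nearest the start are printed as above.
Ifit1, chr19:34640794-34640823, plus strand: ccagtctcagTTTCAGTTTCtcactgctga
Rsad2, chr12:26456553-26456582, minus strand: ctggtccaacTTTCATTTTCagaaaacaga
Ifit3, chr19:34583397-34583426, plus strand: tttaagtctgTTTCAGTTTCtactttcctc
Gbp2, chr3:142620594-142620623, plus strand: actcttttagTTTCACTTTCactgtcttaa
Bst2, chr8:71537577-71537606, minus strand: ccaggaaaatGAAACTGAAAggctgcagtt
Irgm1, chr11:48871425-48871454, minus strand: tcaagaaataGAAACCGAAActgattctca
Igtp, chr11:58199512-58199541, plus strand: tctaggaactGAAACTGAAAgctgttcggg
Trim30a, chr7:104446104-104446133, minus strand: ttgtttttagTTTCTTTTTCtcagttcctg
The whole Ifit1 promoter is given because it held 2 matches, at positions -104 and -85 from the start, both on the opposite strand.
Ifit1, chr19:34640639-34640938, plus strand: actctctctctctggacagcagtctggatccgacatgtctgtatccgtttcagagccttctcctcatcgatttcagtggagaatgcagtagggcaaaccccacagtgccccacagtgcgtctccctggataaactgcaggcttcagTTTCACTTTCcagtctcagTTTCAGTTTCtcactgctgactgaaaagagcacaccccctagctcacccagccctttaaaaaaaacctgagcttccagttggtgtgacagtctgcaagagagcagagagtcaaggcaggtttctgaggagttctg
Oasl2, with the largest fall of the list, had no match in its window.

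**Figure D5:**
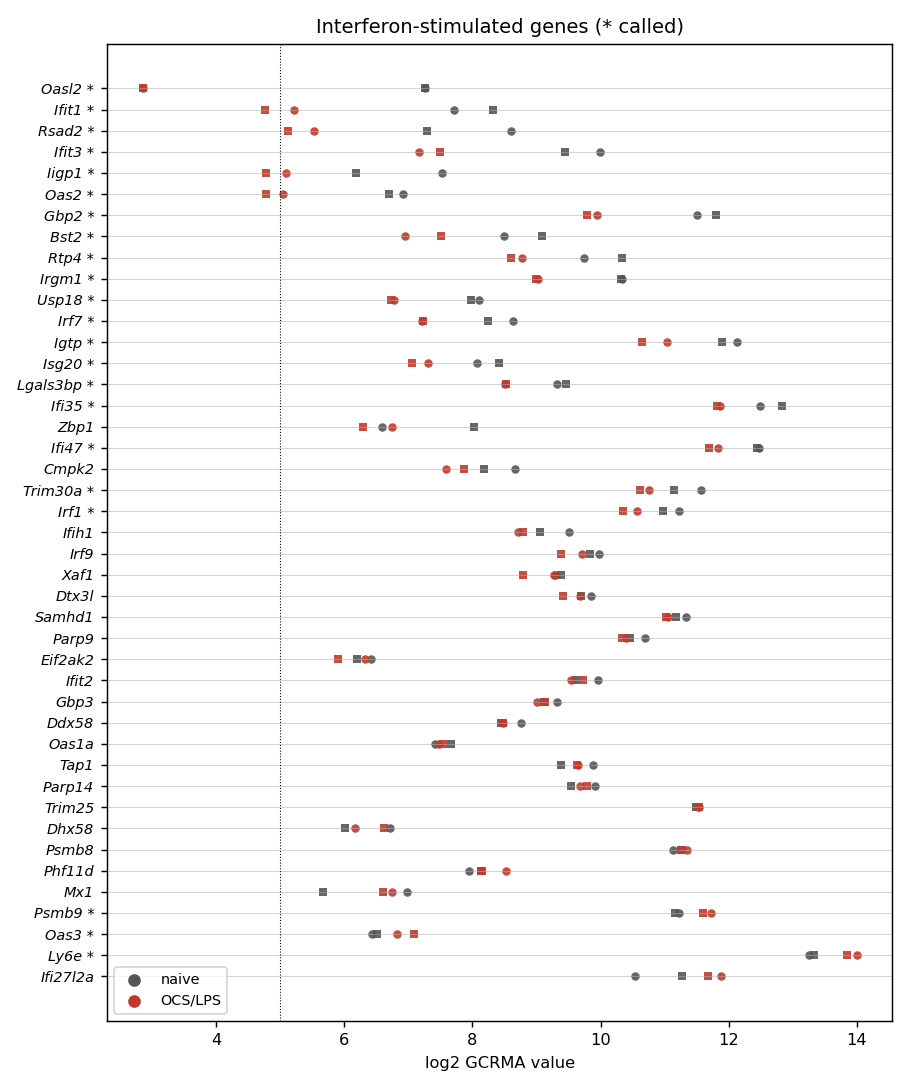
Log2 GCRMA values (x axis) of the 43 tested interferon-stimulated genes (rows, ordered by difference, called genes starred) on the naive (grey) and OCS/LPS (red) arrays; circles are arrays numbered 1, squares arrays numbered 2, and the dotted line marks log2 5. The OCS/LPS points lie left of the naive points in the upper rows, from Oasl2 at -4.41, and mix with them in the lower rows.

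Genes linked to the TGF-beta pathway, which restrains T cell activation, were mostly lower, inhibitors of the pathway among them. Of 12 tested genes 8 fell and 1 rose (median -0.79). Smad5, a receptor-activated mediator of the bone morphogenetic branch, was at 7.32 and 7.09 in naive and 5.78 and 5.47 in OCS/LPS cells and fell by 1.57 (SE 0.16, adjusted p = 0.0014). Smad7, the inhibitory SMAD, fell by 0.97 (SE 0.17), the ligases Smurf2 and Smurf1 by 1.35 and 1.12, and the co-repressor genes Ski and Skil by 0.73 and 0.67. Smad3, which carries the TGF-beta signal itself, was the exception: it went from 8.14 and 8.04 to 9.35 and 9.46 and rose by 1.31 (SE 0.15, adjusted p = 0.00203). Receptor genes fell: Tgfbr1 fell by 0.66 (SE 0.20, adjusted p = 0.0494), Tgfbr2 fell by 0.88, and Tgfbr3, the co-receptor betaglycan, fell by 2.07 (SE 0.24). Itgae and Pmepa1, both known to be induced by TGF-beta, were outside the list too. They fell by 3.29 and 4.0 (SE 0.28), the latter from 6.93 and 7.76 to 3.48 and 3.21. The Tgfbr1 call was lost with the replicate block (adjusted p = 0.0684), with only the arrays compared, and without naive array 1 or either OCS/LPS array. Of the 8 falls, 4 were called with either OCS/LPS array alone.

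Survival and death genes changed on both sides. Bcl2, which blocks mitochondrial apoptosis, was at 12.26 and 11.88 in naive and 9.14 and 9.51 in OCS/LPS cells and fell by 2.75 (SE 0.22, adjusted p = 0.000466). Its relative Bcl2l1, which encodes BCL-XL, rose by 1.0 (SE 0.22, adjusted p = 0.0185), and Mcl1 was not called (0.27, SE 0.17). Of 11 BCL2 family genes 2 rose and 3 fell, or 18.2% and 27.3%, against 20.5% and 12.3% of all tested genes. Of the 11, 1 passed the filter on low values only through the naive arrays. With either OCS/LPS array left out, the Bcl2l1 call was lost and fewer members were called higher. On the killing side Bbc3, which encodes PUMA, fell from 6.78 and 7.04 to 4.94 and 4.69, near background (by 2.09, SE 0.15), Bak1 rose by 0.75 and Bcl2l11, which encodes BIM, read 9.66 and 9.17 in naive and 9.33 and 9.43 in OCS/LPS cells, inside the naive range. Of 18 genes of death receptors, caspases and apoptosome 6 rose and 0 fell (9 and 1 at an unadjusted limma p under 0.05). Casp1, the inflammatory caspase, went from 5.01 and 4.91 to 7.61 and 7.61 and rose by 2.65 (SE 0.16, adjusted p = 0.000177), and Casp4, its relative that senses LPS inside cells, from 2.42 and 2.29 to 5.97 and 5.82, up by 3.53 (SE 0.27). Apaf1, the scaffold of the apoptosome, rose by 1.92 (SE 0.15) and the necroptosis kinase gene Ripk3 rose by 1.39 (SE 0.11).

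Genes of antigen receptor signalling were called about as often as other genes or less. Of 27 genes of the T cell receptor complex and proximal signalling 4 rose and 2 fell, a share of 14.8% and 7.41% against 20.5% and 12.3% of all tested genes (6 and 5 at an unadjusted limma p under 0.05), and with either OCS/LPS array alone 0 were called higher and 1 lower. The kinase gene Fyn and the adaptor gene Lcp2 rose by 0.58 and 0.53, and the kinase gene Tec fell by 1.24. Immediate early genes, which answer receptor signals within minutes, had 1 of 21 higher and 4 lower (1 or 0 lower without OCS/LPS array 1 or 2). Egr3 went from 10.21 and 10.15 to 8.72 and 8.88 and fell by 1.38 (SE 0.24), and the AP-1 gene Fosl2 fell by 1.68 (SE 0.33). Of 12 NF-kB genes 1 rose and 2 fell, or 8.33% and 16.7%, and 0 were called with either OCS/LPS array alone. The inhibitor genes Nfkbia and Nfkbie fell by 0.74 and 0.52, and the subunit gene Rel rose by 1.02. Nrp1, a co-receptor for semaphorins, went from 4.69 and 5.33 to 10.00 and 9.99 and rose by 4.98 (SE 0.25), and Izumo1r, a member of the folate receptor family, rose by 2.46 from near background. Myc, the growth-promoting transcription factor induced early in activation, was lower after 60 h: it lay at 10.01 and 10.48 in naive and 8.95 and 9.04 in OCS/LPS cells and fell by 1.25 (SE 0.18, adjusted p = 0.0048). Of 32 Myc and ribosome biogenesis genes 4 fell and 1 rose. Of 37 cytosolic ribosomal protein genes 7 (18.9%) fell and 0 rose, with a median of -0.15 (11 and 0 at an unadjusted limma p under 0.05). Without OCS/LPS array 1 or 2, 1 or 2 genes of either list were called lower. Without naive array 1, 12 ribosomal and 7 biogenesis genes were, and with each array centred on the tested genes 11 and 10. Mitochondrial ribosomal proteins depended on 1 naive array: 8 of 75 rose and 2 fell, 70 of the 75 were higher on naive array 2 than on array 1, and without naive array 2 the higher count was 49. Without naive array 1 the lower count was 14. Without OCS/LPS array 1 or 2 the higher count was 2 or 3.

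Some of the largest falls belonged to none of these groups. Igfbp4, a binding protein of insulin-like growth factors, was at 12.60 and 12.60 on the naive arrays and at 8.34 and 7.72 on the OCS/LPS arrays, and fell by 4.57 (SE 0.26, adjusted p = 0.000139). Cnn3, a calponin of the actin skeleton, went from 10.79 and 10.87 to 7.31 and 7.37 and fell by 3.49 (SE 0.12). Nr1d2, a clock repressor also called Rev-erb beta, went from 9.99 and 9.82 to 6.70 and 7.31 and fell by 2.90 (SE 0.23). Ramp1, a partner of the receptor for the neuropeptide CGRP, fell by 3.88 to 4.25 and 5.36 (SE 0.44). App, the amyloid precursor gene, fell by 4.13 to near background (SE 0.19), and passed the filter on low values only through the naive arrays. Rgcc, a cell cycle regulator that responds to complement, fell by 2.76 (SE 0.24).

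Marker genes of other spleen cells were detected on the arrays of both groups, although the cells had been sorted as CD8+Ly5.1+. Summed log2 levels of the 6 MHC class II genes were 32.6 and 33.0 on the naive arrays and 32.0 and 35.2 on the OCS/LPS arrays; 5 of the 6 were at log2 5 or more and 1, H2-DMa, fell by 0.85. For the 9 B cell genes the sums were 30.4 and 32.4 against 35.8 and 38.1. The rise of the sum lay largely in Cd22, an inhibitory receptor of B cells. It went from 4.04 and 3.59 to 8.20 and 8.55 and rose by 4.56 (SE 0.25). On the RIP-OVAhi arrays Cd22 read 6.53 and 7.03 and Cd79b 7.89 and 8.43. There Ms4a1 (3.74 and 3.98) and the plasma cell gene Jchain (1.65 and 2.28) were near background. Of the 9, 6 were near background on all 4 arrays, among them Cd79a at 2.17 to 2.24. Cd79b was at 7.10 and 8.27 in naive and 8.18 and 8.42 in OCS/LPS cells and was not called (0.62, SE 0.40), and Ms4a1 read 4.73 and 5.72 and 4.92 and 6.67. The 5 plasma cell and immunoglobulin genes summed to 32.0 and 33.2 against 32.4 and 35.9, with Jchain at 7.07 and 6.93 and 8.01 and 8.45, up by 1.22 (SE 0.25). Macrophage and monocyte genes (11) summed to 38.7 and 41.3 against 38.5 and 39.3. Of the 7 dendritic cell genes Itgax alone was above log2 5, in OCS/LPS cells. The part of such cells in the rises of Itgax, Cd22 and Jchain was not tested, and in bulk samples fewer cells of a type and less RNA per cell cannot be told apart. OCS/LPS array 2 was higher than array 1 in these lists except the dendritic cell genes: the neutrophil gene S100a8 read 3.48 and 5.28 on arrays 1 and 2.

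Against cells that divided in RIP-OVAhi hosts far fewer genes differed. limma called 107 genes higher in OCS/LPS (1.3% of those tested) and 132 lower (1.61%), in all 2.91%. RIP-OVAhi cells came from lymph nodes rather than spleen, so tissue and condition cannot be told apart. The 3 spleen cell genes Lyz1, Jchain and H2-Aa were higher in OCS/LPS by 4.67, 6.26 and 4.49. Other markers varied: 3 of 5 MHC class II, 2 of 3 plasma cell, 1 of 3 macrophage and 1 of 3 B cell genes were called higher. In these lists 0 were called lower, and H2-DMa (-1.12), Cd79b (0.14) and Cd74 (1.25) were among those not called. Of the 72 mitosis genes 2 were higher in OCS/LPS and 0 lower (36 and 0 at an unadjusted limma p under 0.05), and of the 44 replication genes 0 were called in either direction (10 and 0 unadjusted). Gzma and Gzmb, near background in RIP-OVAhi cells at 3.25 and 3.41 and at 3.41 and 3.21, were higher in OCS/LPS by 6.92 (SE 0.17, adjusted p = 6.45e-05) and 5.99 (SE 0.43, adjusted p = 0.00265). S100a4 and S100a6 were at 5.16 and 5.34 and at 6.96 and 6.90 in RIP-OVAhi cells and higher in OCS/LPS by 5.85 and 5.20 (SE 0.14 and 0.22). Klrc1 (4.02), Itgax (3.32), Lgals3 (3.17), Il18rap (2.93), Klrk1 (2.67), Tbx21 (1.81), Smad3 (1.65), Il12rb1 (1.55), Serpinb9 (1.10) and Cxcr3 (0.92) were higher as well. Lower in OCS/LPS were Tnfsf11 (-4.01), Ccr9 (-3.94), Pmepa1 (-3.37), Ramp1 (-3.40), Izumo1r (-2.80), Itgae (-2.47), Abca1 (-2.45), Oasl2 (-2.26), Ikzf2 (-2.09), Cd200 (-2.02), Cd86 (-1.96), Ifit1 (-1.86) and Pdcd1 (-0.91). Ctla4 and Irf4 were not called between these groups (-0.05, SE 0.20, and -0.10, SE 0.27). Klrk1 and Itgax were tested only through the OCS/LPS arrays, as were Lgals3 and Il12rb1. The comparison rests on both arrays of each group: with 1 of the 4 left out, 16 to 24 genes were called higher and 16 to 21 lower.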

How the data were processed

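Expression was measured on Affymetrix arrays with 100 ng of total RNA per sample. The deposited values are log2 expression values made by the authors with GCRMA, per the submitters' processing notes; no version of it is given in the sources used here. Arrays give no counts, so the number of arrays limits the precision. Of 45101 probe sets, 34958 were annotated to 1 gene symbol, 932 to several and 9211 to none. For each gene the probe set that had the highest average of the 7 arrays was kept, and 8203 of 18194 genes with log2 5 or more in at least 2 arrays were tested. Column names gave every array's sample, and 0 columns were left unmapped. limma 3.58.1 (R 4.3.3) fitted group means over all 7 arrays (3 residual degrees of freedom). P-values were adjusted by the Benjamini-Hochberg method over all tested genes, and genes were called at 0.05.

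Genes were named by a rule: the 15 largest called rises and falls among genes at log2 5 or more in both groups, the 10 largest of each among other called genes, up to 8 called members of each list in each direction, and key genes given whether called or not. Marker genes were given as levels. Members and lists were chosen with earlier results of these data known, so no list is independent evidence. Replicate differences were correlated between groups over 7948 tested genes, with genes on the sex chromosomes left out. The values were r = -0.06 between naive and OCS/LPS, 0.20 between naive and RIP-OVAhi and -0.02 between OCS/LPS and RIP-OVAhi. Sex-linked genes such as Xist did differ by replicate number in all of these groups. Numbers were not used as pairs in the main model, and a replicate block was run as an alternative. Promoter sequences came from RefSeq (GRCm38.p6). Alternatives changed the centring, the filter, the probe set rule, the arrays in the model and the variance prior, and left out each array.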

Additional observations from a re-analysis of the deposited data

Results flagged for a closer look

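In 7 of the named genes with a test, sex-linked genes left aside, the pairs of same-numbered arrays moved in opposite directions. This difference between the pairs was not tested, and the numbers were not used as pairs in the main model. Bcl2l11 differed by -0.33 between the arrays numbered 1 and by 0.26 between those numbered 2, and Slc2a1 by 0.23 and -0.40. For Mx1 the differences were -0.23 and 0.95, for Nkg7 0.45 and -0.093, for Pttg1 0.31 and -0.30, for Rgs16 0.18 and -0.67 and for Smc4 -0.14 and 0.74. Over all tested genes, 1862 of 8203 had such opposite signs. None of the 7 was called between OCS/LPS and naive in limma.

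Probe sets with no gene symbol, or with several, entered no comparison of the report. Tested in the same model, 221 of 2287 were called higher in OCS/LPS than in naive cells and 557 lower. A total of 34.0% were called, against 32.0% of the 13853 tested probe sets with 1 symbol.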

How the results depend on the processing

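In every alternative run, 0 of the genes called against naive were called in the opposite direction. Counts that moved by over 1.5 times against naive were 665 genes lower with no filter on low values, 630 lower with only the arrays of the compared groups, and 250 genes at least 2-fold lower with the mean of all probe sets of a gene. Leaving out 1 array gave 690 to 2255 genes higher and 325 to 1391 lower, and 259 to 472 at least 2-fold lower. With the replicate block the counts were 1636 higher and 974 lower. Against RIP-OVAhi, no filter gave 55 higher and 50 lower (32 and 26 at least 2-fold), and only the arrays compared gave 193 and 223. Leaving out 1 array gave 16 to 24 higher and 16 to 21 lower, the same ranges for changes of at least 2-fold, and the replicate block 110 and 121. Centring on the tested genes, chosen after seeing the data, gave 1340 higher and 1461 lower against naive and 116 and 149 against RIP-OVAhi. Of the genes named in the text, 46 lost their call against naive without OCS/LPS replicate 1, 54 without OCS/LPS replicate 2, 6 without naive replicate 1 and 4 without naive replicate 2, 36 with no filter, 21 with only the arrays compared and 10 with the mean of probe sets. Among those lost in 1 of the first 2 settings or in both were Socs3, S1pr1, Il18r1, Cd274, Ccr7, Klf2, Tox, Ccl5 and Nfkbia. Against RIP-OVAhi, 38 to 41 calls were lost with any 1 array left out, and 34 with no filter.

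Single genes whose sign turned were uncalled in the main setting except Prps2, whose mean over probe sets was 0.16. With centring on all probe sets Bcl2l11 was at 0.026, and with centring on the tested genes Pttg1 at -0.14. With the mean of probe sets Bcl2l11 was at 0.26, Mcl1 at -0.27 and Slc2a1 at 0.36. With 1 array left out, the differences of the genes that turned ranged from -0.28 to 0.21 for Bcl2l11, -0.22 to 0.23 for Pttg1, -0.30 to 1.02 for Mx1, -0.56 to 0.072 for Rgs16, -0.60 to 0.44 for Slc2a1, -0.072 to 0.67 for Smc4, -1.27 to 0.069 for Xcl1, -0.19 to 0.022 for Eomes and -0.093 to 0.39 for H2-Aa. The cause of these changes was not tested. Values under log2 5 lie near background, where small differences have no clear order.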

Other observations

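Protein folding genes of the endoplasmic reticulum rose in part. Of 21 genes of folding and of the unfolded protein response 8 rose and 3 fell. These were 38.1% and 14.3%, against 20.5% and 12.3% of all tested genes. Of the 21, 1 passed the filter on low values only through the OCS/LPS arrays. Sdf2l1, a chaperone partner gene, was at 4.11 and 4.34 in naive and 7.16 and 7.62 in OCS/LPS cells and rose by 3.16 (SE 0.20, adjusted p = 0.00021 in limma). Disulphide isomerase genes rose by less, Pdia6 by 0.87 and Pdia3 by 0.85, and the chaperone gene Hsp90b1 by 0.68. Ern1, the stress sensor IRE1, and Dnajb9, which restrains it, fell by 0.77 and 1.12. The count of rises was 2 or 1 without OCS/LPS array 1 or 2. In the ATF4 programme the tRNA synthetase genes Aars, Gars and Tars rose by 0.92, 0.90 and 0.63. The transporter genes Slc3a2 and Slc38a2 and the regulators Atf4 and Ddit3 fell by 0.80, 0.63, 0.59 and 1.0. Of the programme's 20 genes 3 rose and 4 fell, or 15% and 20%. Their lower count was 2 or 1 without OCS/LPS array 1 or 2, and the higher count 7 without naive array 1. Heat shock genes had 5 of 15 higher and 0 lower (7 and 1 at an unadjusted p under 0.05), and 1 or 2 higher without OCS/LPS array 1 or 2 and 2 without naive array 2. The inducible Hsp70 gene Hspa1b differed within groups, at 5.69 and 3.77 on the naive arrays and 10.67 and 7.84 on the OCS/LPS arrays, and has a near-identical copy, so its identity is uncertain.

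Several genes outside the lists, chosen after their values were seen, were high in OCS/LPS cells. Plek, which encodes pleckstrin, a substrate of protein kinase C, was at 6.19 and 5.90 on the naive arrays, 11.09 and 10.87 on the OCS/LPS arrays, 7.66 and 8.22 on the RIP-OVAhi arrays and 9.07 on the Rag array. It rose by 4.94 against naive and was higher than in RIP-OVAhi by 3.04 (adjusted p = 0.00292 in limma). Fgl2, a fibrinogen-like secreted protein gene, read 3.58 and 3.75 in naive, 6.6 and 6.70 in OCS/LPS and 3.66 and 3.81 in RIP-OVAhi cells and 4.42 on the Rag array, and Emp1, an epithelial membrane protein gene, 2.68 and 2.71, 5.62 and 5.78 and 2.82 and 2.82, with 6.00 on the Rag array, above both OCS/LPS arrays. Fgl2 and Emp1 passed the filter on low values only through the OCS/LPS arrays. P2rx7, the receptor for extracellular ATP, was at 3.87 and 3.16 in naive, 7.70 and 8.05 in OCS/LPS, 7.79 and 8.41 in RIP-OVAhi and 3.64 in Rag cells. Rgs16 and Xcl1, a regulator of G protein signalling and a chemokine gene, were not called between OCS/LPS and naive (-0.24 and -0.60) but were lower than in RIP-OVAhi by 5.04 and 3.48 on the log2 scale.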
